A study of Rattus norvegicus with 11 samples.

Results

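The C-type lectin receptor genes were taken as every gene whose symbol begins with Clec followed by a number. The deposited table of 30560 genes held 38 of them, of which 29 reached 10 counts summed over the 11 rats and are described here. A further 5 genes (Clec20a, Clec2h, Clec4b2, Clec4f and Clec4g) had between 1 and 9 counts, and 4 genes (Clec2ml1, Clec3a, Clec4m and Clec6a-ps1) had 0 counts in every rat. Genes with the same protein fold but another name, such as Mrc1 or the Klr genes, were not chosen by this rule and are given as a separate list.

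RNA of the striatum, a forebrain region, was sequenced at day 3 in adult male Sprague-Dawley rats. The 3 IC rats carried a common intracerebral hemorrhage, made by injecting 0.2 U of collagenase VII-S, a bacterial enzyme that breaks down vessel walls, in 1.0 μL saline into the right striatum under isoflurane. The 3 IS rats carried a severe hemorrhage from 0.6 U in 3.0 μL. The 3 IS-HA rats were given that severe dose and then had 150 μL of the hematoma drawn off at 6 h through a catheter, which required a second anesthesia. The 2 Normal rats had neither collagenase nor aspiration, and no group with a saline injection alone was analysed here, so in each comparison with Normal the hemorrhage cannot be told apart from the injection and the anesthesia. The enzyme dose and the injected volume rose together between IC and IS. Every library is bulk RNA of dissected tissue from 1 rat, in which fewer cells of a type and less RNA per cell cannot be told apart.

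C-type lectin receptors are mostly membrane proteins of myeloid cells that recognise sugars, glycolipids or molecules exposed by damaged cells. Activating members signal through the kinase Syk, either by a tyrosine motif of their own (Clec7a, Clec9a) or by pairing with the adaptors Fcer1g (Clec4e, Clec4d) or Tyrobp (Clec5a), and on to the Card9 complex and NF-kB. Inhibitory members such as Clec12a and Clec4a carry a motif that recruits the phosphatases Ptpn6 and Ptpn11. In the brain, microglia and blood-derived macrophages are the cells best known for these receptors. The name also covers ligands of natural killer cell receptors (the Clec2 genes), secreted proteins (Clec3b, Clec11a, Clec18a) and Clec16a, which is known for endosome and mitochondrial turnover and not as a receptor.

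The level of a gene is given in TPM, the share of a transcript in its library, which the authors corrected for gene length, so that levels of different genes can be set side by side. Fold changes come from the read counts. A gene was called when its adjusted p in edgeR's quasi-likelihood test was under 0.05 and its fold change was at least 1 on the log2 scale. The counts assigned to genes lay between 6701301, in IS-HA replicate 2, and 18817645 per rat. All 12 neuron markers, among them the striatal genes Ppp1r1b, Drd1, Drd2 and Penk, were above 0 in each group. Their summed TPM was 8329 and 8904 in Normal, 3534 to 6797 in IC, 1766 to 4318 in IS and 3382 to 4986 in IS-HA. In IC, IS and IS-HA, 2, 9 and 5 of the 12 were called lower than Normal, as were 2.66%, 17% and 7.71% of all genes. The lowest sum was that of IS replicate 4, the rat with the highest summed TPM of the Clec genes.

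The family differed between groups in its total and in its makeup. The summed TPM of all 38 genes was 107 ± 1.02 in Normal (mean ± SD, n = 2), 362 ± 76.6 in IC, 680 ± 188 in IS and 433 ± 37.9 in IS-HA (n = 3 each). In Normal striatum 42.4% of this sum was Clec2l and 22.9% was Clec16a, neither of which is known as a myeloid receptor. In IS those shares were 6.67% and 2.50%, and the largest mean shares of the 3 rats were those of the receptor genes Clec12a (16.7%, from 13.8% to 19.1%), Clec10a (15.9%, from 11.6% to 22.0%), Clec7a (14.4%, from 10.6% to 18.6%) and Clec4a3 (12.5%, from 10.6% to 14.2%). These ranges overlap, so the order among the 4 differs between rats, and the highest shares of Clec10a and Clec7a were those of IS replicate 4. In IC and in IS-HA the mean share of Clec12a was 14.4% and 18.3%.

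**Figure D1:**
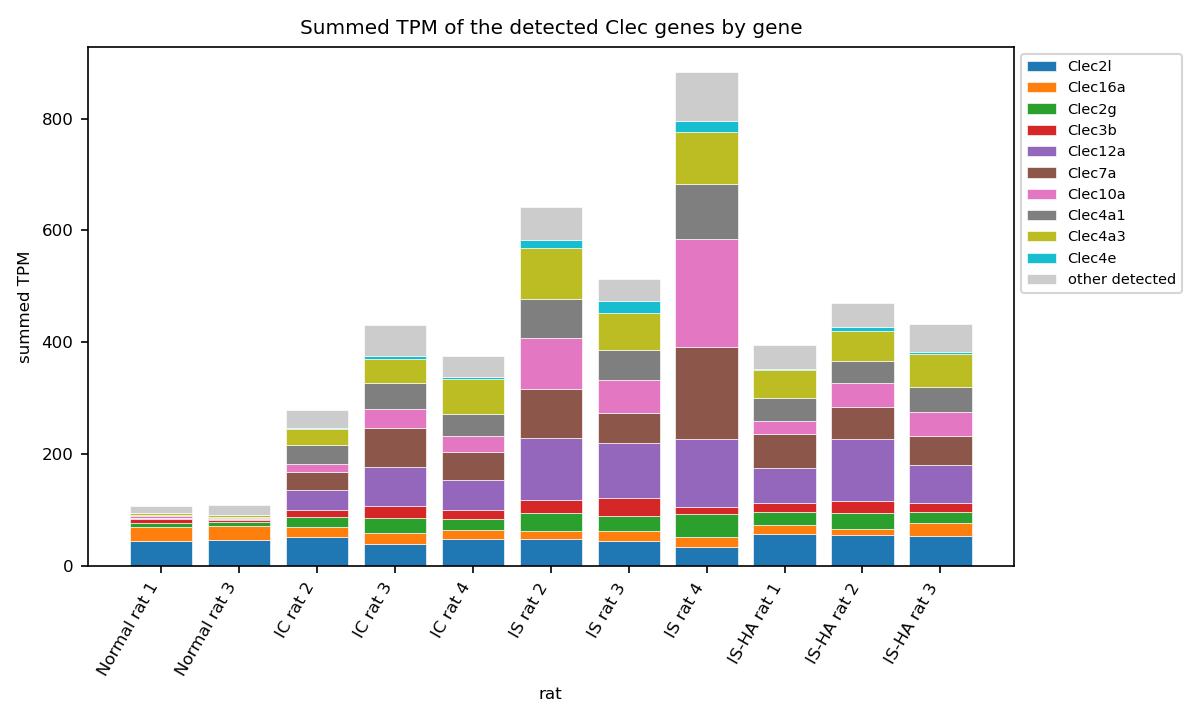
Summed TPM of the detected Clec genes in each of the 11 rats, stacked by gene; the vertical axis is TPM, each bar is 1 rat, and grey collects the genes not listed. The bars reach 106 and 108 in the Normal rats and 884 in IS replicate 4, while the Clec2l segment stays between 34.1 and 56.6.

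Of the 29 detected genes, 20 passed the filter on low counts and were tested. Against Normal, 12 of the 20 were called higher in IC, where 10.9% of all 15742 genes tested were called higher. In IS 13 were called higher (18.8% of all genes), and in IS-HA 15 (15.1% of all genes). None was called lower in IC, IS or IS-HA, where 2.66%, 17% and 7.71% of all genes were called lower. These 3 comparisons share the same 2 Normal rats. The counts of members are not support for a property of the family, because 10 of the 20 genes (Clec12a, Clec2d2, Clec2d2l1, Clec2gl1, Clec4a, Clec4a2, Clec4e, Clec5a, Clec7a and Clec9a) were under the filter's minimum of 0.913 CPM (counts scaled to the same total in each rat) in both Normal rats and passed through the hemorrhage groups alone. Those 10 had to differ, and all 10 were called in at least 1 comparison. Of the other 10 genes, 5 were called (Clec10a, Clec2g, Clec3b, Clec4a1 and Clec4a3). Leaving out a Normal rat leaves a single one, which the fit assumes to vary like the rats of the other groups. No share over all genes is given for those fits, so the number of members called in them is not given. Whether a lost call is particular to a member therefore cannot be told. The calls in IC of Clec10a, Clec2g, Clec4e and Clec9a were lost without Normal replicate 3 (adjusted p = 0.0866, 0.104, 0.101 and 0.0836) and those of Clec10a and Clec2d2 without Normal replicate 1 (adjusted p = 0.0661 and 0.0789). The log2 fold change of Clec10a hardly moved, at 3.13 and 3.10 where it was 3.12 with all rats, and that of Clec2g was 1.41 where it was 1.62. In IS-HA, Clec4e and Clec9a were lost without Normal replicate 3 (adjusted p = 0.0584 and 0.0574).

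**Figure D2:**
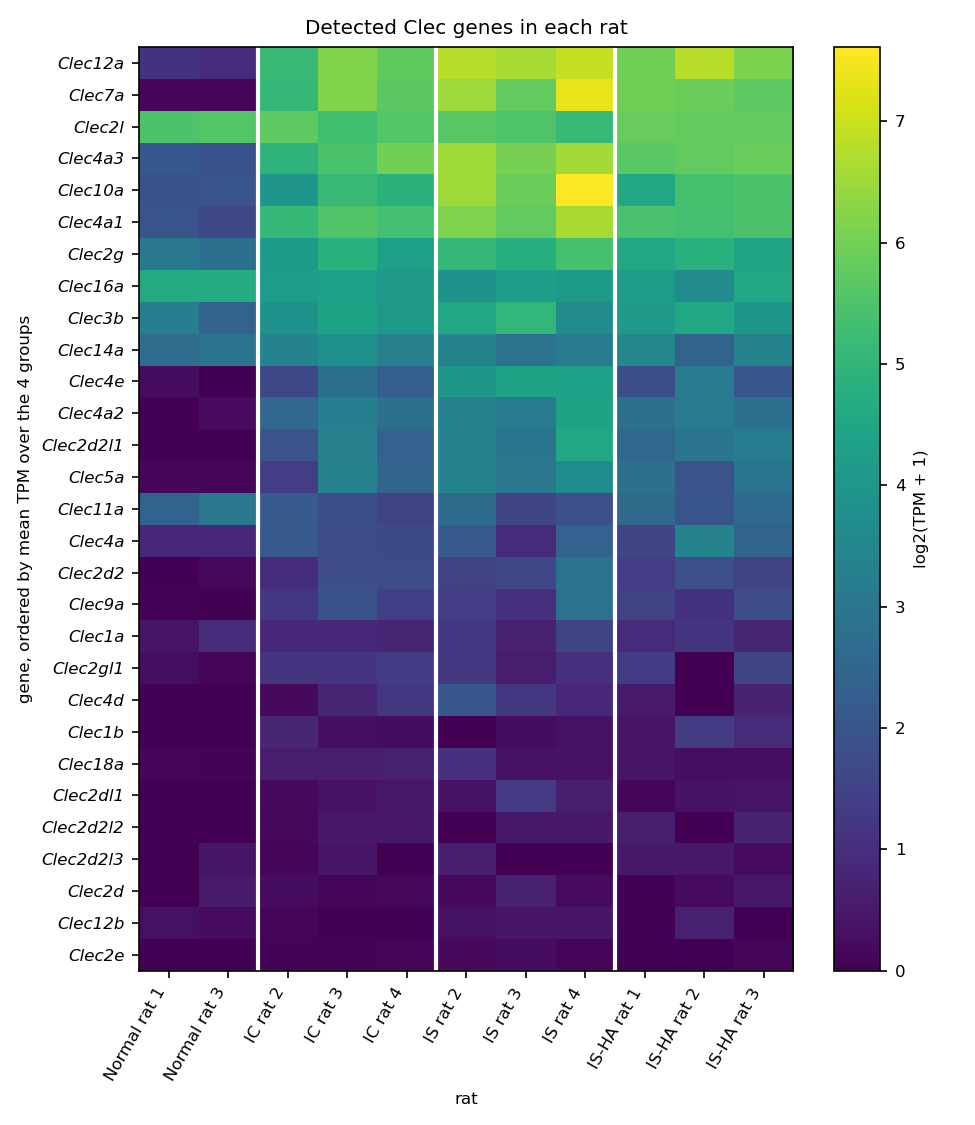
Level of the 29 detected Clec genes (vertical) in each of the 11 rats (horizontal), coloured by log2(TPM + 1), with white lines between the groups and genes ordered by their mean. Clec2l and Clec16a are the brightest genes in Normal, and Clec12a, Clec7a, Clec4a3, Clec10a and Clec4a1 are bright in the 9 rats with a hemorrhage.

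Among the activating receptors, Clec7a (dectin-1, a receptor of fungal beta-glucan; ENSRNOG00000054251) went from near 0 to one of the highest levels of the family. Its TPM was 0.103 and 0.105 in the Normal rats, 32.5, 70.4 and 50.9 in IC, 89.1, 54.6 and 164 in IS and 61.6, 58.4 and 52.0 in IS-HA. Every rat with a hemorrhage lay far above both Normal rats, whereas IS overlapped both IC and IS-HA. The log2 fold change against Normal was 8.78 ± 0.79 (SE) in IC (adjusted p = 0.000115), 9.87 ± 0.80 in IS (adjusted p = 3.13e-05) and 9.0 ± 0.79 in IS-HA (adjusted p = 7.02e-05). It rests on 4 counts in all in Normal.

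Clec4e (Mincle, a receptor of glycolipids and of the nuclear protein Sf3b3 from dying cells; ENSRNOG00000061394) was higher in every IS rat than in any other rat. Its TPM was 0.180 and 0 in Normal, 2.13, 6.04 and 3.84 in IC, 15.5, 20.4 and 19.3 in IS and 2.55, 7.71 and 3.12 in IS-HA. IC and IS-HA overlapped each other, and none of their rats reached the lowest IS rat. With 1 count in Normal, its count ratio to Normal was 202 in IS, with an exact 95% interval from 35.8 to 8020 that covers counting error only, and it was called in IC, IS and IS-HA (adjusted p = 0.00793, 0.000304 and 0.00492). Its partner Clec4d, which lies beside it on the chromosome, had 46 counts over the 11 rats and was left out by the filter. The TPM of Clec4d was 0 in both Normal rats, 0.151 to 1.36 in IC, 0.825 to 3.20 in IS and 0 to 0.664 in IS-HA.

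Clec5a (MDL-1, which signals through Tyrobp; ENSRNOG00000026306) was at 0.0908 and 0.0928 TPM in Normal. It was at 1.61, 9.20 and 4.55 in IC, at 9.63, 7.16 and 12.1 in IS and at 6.09, 2.86 and 6.74 in IS-HA. All 3 IS-HA rats lay below the lowest IS rat, while IS overlapped IC. Clec5a was called against Normal in IC, IS and IS-HA (adjusted p = 0.00223, 0.000367 and 0.00162), with a count ratio of 102 in IS (exact 95% interval 27.9 to 849) on 2 counts in Normal.

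Clec9a (DNGR-1, which binds actin filaments laid bare in dead cells and is best known from cross-presenting dendritic cells; ENSRNOG00000051690) was at 0.0402 and 0 TPM in Normal. The values were 1.37, 2.73 and 1.65 in IC, 1.63, 1.08 and 6.29 in IS and 1.84, 1.17 and 2.50 in IS-HA. IS replicate 4 was the highest of all rats, IS replicate 2 lay within the range of IC and IS replicate 3 below it. Clec9a was called against Normal in IC, IS and IS-HA (adjusted p = 0.00599, 0.0012 and 0.0045). Beside it, 6, 8 and 8 of 11 tested dendritic cell markers were called higher in the same comparisons, where 10.9%, 18.8% and 15.1% of all genes were. The summed TPM of the dendritic cell markers was 58.7 to 64.4 in Normal, 89.7 to 115 in IC, 104 to 143 in IS and 88.5 to 123 in IS-HA, with Cd209a at 0 in every rat. The part of such cells in the level of Clec9a was not tested.

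Clec12a (MICL, an inhibitory receptor of uric acid crystals; ENSRNOG00000054860) had the largest mean share of the family in IC, IS and IS-HA, although the mean TPM of Clec10a in IS was higher (115 ± 70.9 against 110 ± 12.2, SD, n = 3). That order of the means rests on IS replicate 4, the only IS rat in which Clec10a was above Clec12a. The TPM of Clec12a was 1.15 and 0.885 in Normal, 35.1, 70.6 and 53.3 in IC, 111, 97.8 and 122 in IS and 62.2, 110 and 68.6 in IS-HA. All IS rats lay above all IC rats, and IS-HA replicate 2 reached the level of IS. The log2 fold change against Normal was 5.62 ± 0.53 in IC (adjusted p = 0.000126), 6.75 ± 0.55 in IS (adjusted p = 3.13e-05) and 6.31 ± 0.54 in IS-HA (adjusted p = 7.02e-05).

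The Clec4a group belongs to the dendritic cell immunoreceptors, and 4 of its genes were detected. Clec4a1 (ENSRNOG00000042139) was at 2.93 and 2.11 TPM in Normal, 33.2, 45.7 and 39.4 in IC, 69.3, 53.7 and 97.5 in IS and 41.9, 39.3 and 44.0 in IS-HA. Clec4a3 (ENSRNOG00000010018) was at 3.29 and 2.74 in Normal, 29.8, 42.6 and 62.2 in IC, 90.9, 65.7 and 93.6 in IS and 49.8, 53.9 and 58.7 in IS-HA. For both genes the IS rats lay above all rats of IC and IS-HA. The log2 fold change of IS against Normal was 4.88 ± 0.37 for Clec4a1 (adjusted p = 3.13e-05) and 4.79 ± 0.42 for Clec4a3 (adjusted p = 3.57e-05), and both were also called in IC (3.90 and 3.85) and IS-HA (4.02 and 4.15).

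Clec4a2 (ENSRNOG00000030012) was lower throughout, at 0 and 0.168 TPM in Normal, 4.66, 8.57 and 6.0 in IC, 9.25, 7.84 and 20.5 in IS and 6.0, 7.78 and 5.97 in IS-HA. It was called against Normal in IC, IS and IS-HA (adjusted p = 0.00149, 0.000242 and 0.00111), with a count ratio of 141 in IS (exact 95% interval 24.8 to 5596). Clec4a itself (ENSRNOG00000010045) was at 0.811 and 0.829 in Normal, 3.42, 2.37 and 2.29 in IC, 3.43, 0.862 and 4.22 in IS and 2.04, 9.64 and 4.40 in IS-HA. It was lower than the other 3 in every IC and IS rat, though above Clec4a2 in Normal. IS replicate 3 was at the level of Normal and IS-HA replicate 2 stood above all other rats. Clec4a was called in IS-HA against Normal (2.70 ± 0.84, adjusted p = 0.0324) and not in IC (1.63 ± 0.83, adjusted p = 0.187) or IS (1.75 ± 0.85, adjusted p = 0.107). The call in IS-HA was lost without IS-HA replicate 2 (1.78, adjusted p = 0.0809), Normal replicate 1 (adjusted p = 0.126) or Normal replicate 3 (adjusted p = 0.177). These 4 genes are close copies of each other, and how reads shared between copies were counted is not given in the sources used here, so the split among them is uncertain.

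Clec10a (MGL, a macrophage receptor of galactose and N-acetylgalactosamine that takes up glycoproteins; ENSRNOG00000018715) was present in Normal and varied most among IS rats. Its TPM was 2.71 and 3.03 in Normal, 14.6, 34.3 and 28.6 in IC, 91.0, 59.3 and 195 in IS and 22.2, 41.6 and 43.3 in IS-HA. The lowest IS rat lay above the highest rat of IC and of IS-HA. The log2 fold change against Normal was 3.12 ± 0.64 in IC (adjusted p = 0.0074), 5.36 ± 0.70 in IS (adjusted p = 0.000249) and 3.64 ± 0.66 in IS-HA (adjusted p = 0.00257).

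**Figure D3:**
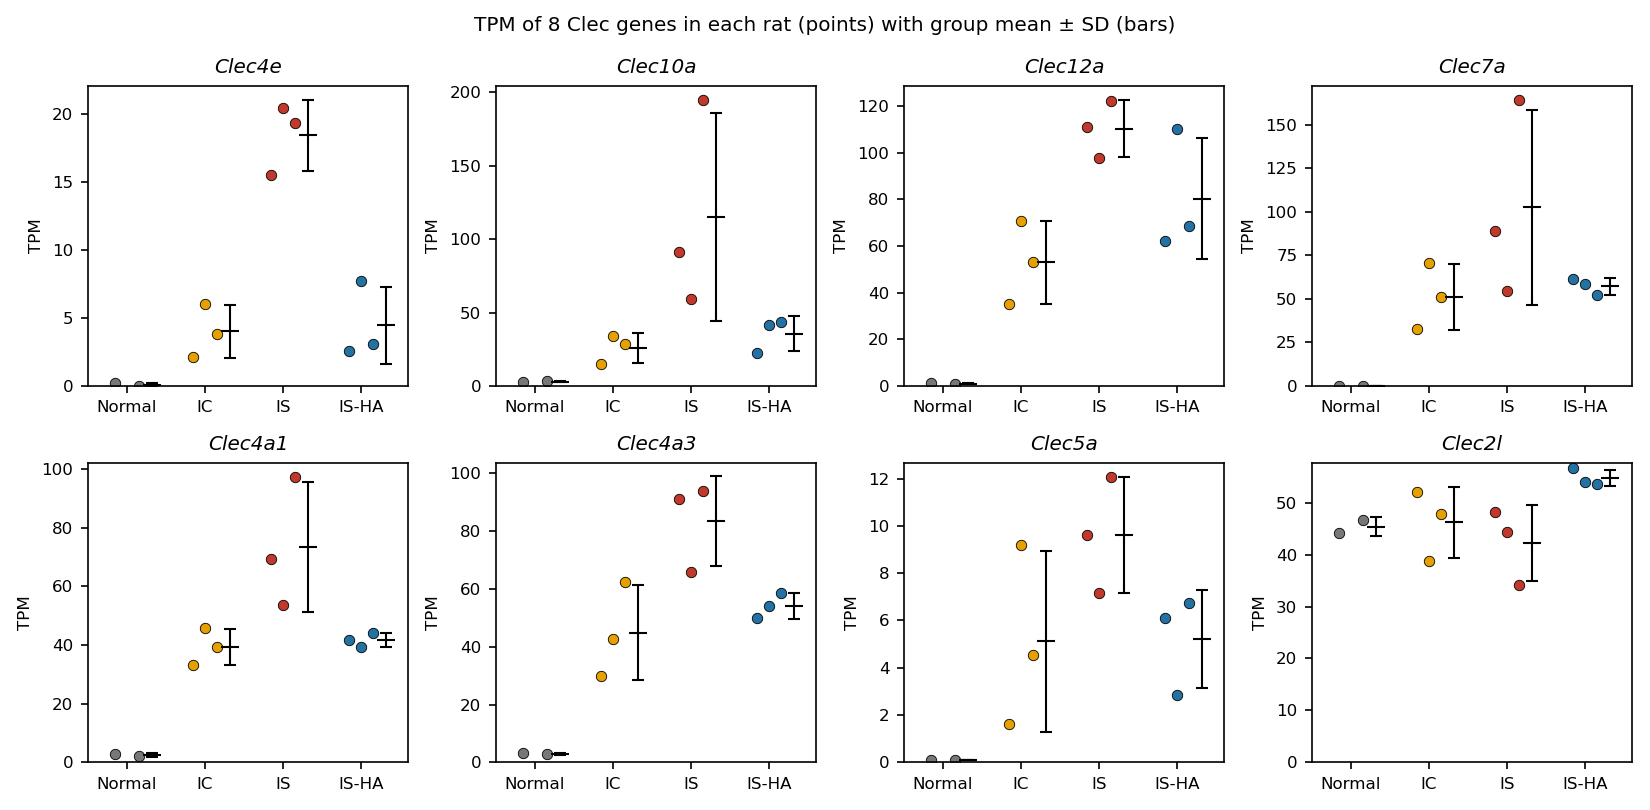
TPM of 8 Clec genes (vertical axes, each from 0) in Normal, IC, IS and IS-HA; each point is 1 rat and the bars are the group mean ± SD. The IS points of Clec4e (15.5 to 20.4) stand clear of IC and IS-HA, those of Clec7a overlap them, and Clec2l lies between 34.1 and 56.6 TPM in every rat.

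Many of the genes that rose against Normal lie in runs on chromosome 4. In the RefSeq annotation of the rat assembly GRCr8, where all 38 symbols were found, 28 of the 38 genes and 13 of the 15 genes called in any comparison are on chromosome 4 (the exceptions among those called are Clec10a on chromosome 10 and Clec3b on chromosome 8). Clec4a1, Clec4a3, Clec4a2, Clec4a, Clec4b2 and Clec6a-ps1 follow each other with 0 other genes between them, and Clec4d and Clec4e stand next to each other 1 gene further on. Clec12b, Clec1b, Clec9a and Clec1a are likewise adjacent, with Clec12a on one side of that run and Clec7a on the other, each 1 gene away. These runs are not adjacent, since 170 genes separate Clec4e from the next Clec gene, and Clec5a stands apart from them with 847 genes between it and the next.

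Since several neighbouring genes were called, the 250 bases before the annotated start of each gene were read from the RefSeq promoter sequences of GRCr8, which held 30 of the 38 genes. They were searched on both strands for the core site of the myeloid factor PU.1 (GAGGAA), AP-1 (TGANTCA), C/EBP (TTGCNNAA), the interferon-stimulated element (GAAANNGAA) and the TATA box (TATAAA). The PU.1 core was in 9 of the 30 (30.0%), beside 23.2% of 27457 rat promoters. AP-1 was in 3 (6.36% of all promoters), C/EBP in 5 (9.20% of all), the interferon-stimulated element in 5 (7.99% of all) and the TATA box in 3 (13.1% of all). The PU.1 core was in Clec4a, Clec4a1, Clec4a3, Clec4b2, Clec4d and Clec4e of the run on chromosome 4, as well as in Clec12a, Clec11a and Clec16a. Clec4a2, in the same run and called against Normal, held none of the motifs. The 4 sequences shown, 5′ to 3′ on the strand of the gene with matches in capitals (the PU.1 core reads TTCCTC on the opposite strand), are those of the gene with the largest fold change between IS and IC, a Clec4a gene, the receptor with the largest mean share in IS, and the receptor with the largest fold change against Normal, which held none of the motifs. A match is only a run of letters and does not show that the factor binds.
Clec4e (chr4:158298468-158298717, minus strand): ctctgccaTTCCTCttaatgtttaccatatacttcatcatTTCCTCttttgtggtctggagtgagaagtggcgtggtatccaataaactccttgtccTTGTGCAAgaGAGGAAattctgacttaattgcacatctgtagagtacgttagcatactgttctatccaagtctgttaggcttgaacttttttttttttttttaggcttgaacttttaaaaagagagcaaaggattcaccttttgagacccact
Clec4a1 (chr4:157845561-157845810, plus strand): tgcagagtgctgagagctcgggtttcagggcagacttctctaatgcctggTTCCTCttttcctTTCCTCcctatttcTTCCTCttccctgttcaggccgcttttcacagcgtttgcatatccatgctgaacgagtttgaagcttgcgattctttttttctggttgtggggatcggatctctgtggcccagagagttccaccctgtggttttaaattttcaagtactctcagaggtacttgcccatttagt
Clec12a (chr4:164483912-164484161, plus strand): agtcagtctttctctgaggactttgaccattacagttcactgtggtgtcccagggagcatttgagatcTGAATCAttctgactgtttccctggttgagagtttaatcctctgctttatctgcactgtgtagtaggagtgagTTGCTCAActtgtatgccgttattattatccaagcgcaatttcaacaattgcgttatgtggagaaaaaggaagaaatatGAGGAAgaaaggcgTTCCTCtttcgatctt
Clec7a (chr4:164599828-164600077, minus strand): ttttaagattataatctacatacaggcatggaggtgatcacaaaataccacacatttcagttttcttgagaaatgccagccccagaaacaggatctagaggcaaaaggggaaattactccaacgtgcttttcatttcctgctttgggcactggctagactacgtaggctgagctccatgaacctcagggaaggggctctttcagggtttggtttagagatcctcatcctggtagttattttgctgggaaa

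The Clec2 genes encode small lectins that engage NKR-P1 receptors of natural killer cells. Clec2g (ENSRNOG00000059538) was the most abundant of those that rose, at 7.33 and 5.87 TPM in Normal, 16.6, 27.9 and 19.2 in IC, 32.8, 26.9 and 41.6 in IS and 22.5, 27.8 and 20.7 in IS-HA. Every rat with a hemorrhage lay above both Normal rats. Its log2 fold change against Normal was 1.62 ± 0.33 in IC (adjusted p = 0.00669), 2.37 ± 0.34 in IS (adjusted p = 0.000402) and 1.85 ± 0.33 in IS-HA (adjusted p = 0.00248).

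Clec2d2l1 (ENSRNOG00000037076) had 0 counts in both Normal rats. Its TPM was 2.86, 9.02 and 4.27 in IC, 9.36, 6.84 and 22.5 in IS and 4.81, 6.60 and 8.16 in IS-HA, and IS replicate 4 stood above all other rats. Set against a floor of 3 counts over both Normal rats, it was at least 28.4-fold higher in IC, 61.4-fold in IS and 31.2-fold in IS-HA (adjusted p = 0.00348, 0.000497 and 0.00204). Clec2d2 (ENSRNOG00000059890) was at 0 and 0.128 TPM in Normal, 0.989, 2.49 and 2.35 in IC, 1.83, 2.06 and 6.20 in IS and 1.63, 2.64 and 1.81 in IS-HA, and was called in IC, IS and IS-HA (adjusted p = 0.01, 0.00158 and 0.00634). Its count ratio to Normal was 48.3 in IS (exact 95% interval 16.2 to 237) on 3 counts in Normal.

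Clec2gl1 (ENSRNOG00000055966) was at 0.206 and 0.0701 TPM in Normal, 1.21, 1.21 and 1.56 in IC, 1.28, 0.510 and 1.03 in IS and 1.53, 0 and 2.01 in IS-HA. It passed the cutoff in IS-HA (2.97 ± 1.01, adjusted p = 0.0443) although IS-HA replicate 2 had 0 counts, and just missed it in IC (3.09 ± 0.99, adjusted p = 0.0529) and IS (2.66 ± 1.03, adjusted p = 0.0523). Leaving out any rat other than IS-HA replicate 2 ended the call in IS-HA (adjusted p between 0.0528 and 0.263). Clec2d, Clec2d2l2, Clec2d2l3, Clec2dl1 and Clec2e had between 10 and 39 counts over the 11 rats, were not tested and did not exceed 1.46 TPM in any rat. The Clec2d and Clec2g copies carry the same uncertainty about shared reads as the Clec4a group.

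Clec2l (ENSRNOG00000029644), a Clec2 gene known from brain, had the highest level of the family in Normal and did not pass the test in any comparison. Its TPM was 44.1 and 46.6 in Normal, 52.1, 38.8 and 47.9 in IC, 48.2, 44.3 and 34.1 in IS and 56.6, 54.0 and 53.6 in IS-HA. The IS-HA rats lay above all other rats, by a log2 fold change of 0.36 ± 0.18 against IS (adjusted p = 0.563). Clec16a (ENSRNOG00000057378) was at 24.2 and 24.8 in Normal, 17.5, 18.8 and 16.5 in IC, 13.6, 17.9 and 16.8 in IS and 17.0, 11.8 and 22.2 in IS-HA. All rats with a hemorrhage were below both Normal rats, with a log2 fold change of -0.58 ± 0.20 in IS (adjusted p = 0.033) that is under the fold cutoff.

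Of the secreted members, Clec3b (tetranectin, which binds plasminogen; ENSRNOG00000004540) was at 8.50 and 4.35 TPM in Normal, 13.8, 20.4 and 16.0 in IC, 22.2, 32.2 and 11.8 in IS and 16.0, 22.2 and 15.4 in IS-HA. It rose against Normal in IS (1.77 ± 0.48, adjusted p = 0.0112) and IS-HA (1.46 ± 0.48, adjusted p = 0.0382) and did not pass in IC (1.30 ± 0.47, adjusted p = 0.0784). Without Normal replicate 3 it passed in neither IS (1.32, adjusted p = 0.114) nor IS-HA (1.01, adjusted p = 0.275), and in IS-HA it also missed the cutoff without IS-HA replicate 2 (1.13, adjusted p = 0.0859), IC replicate 3, IC replicate 4 or IS replicate 2 (adjusted p between 0.0506 and 0.0558). Clec11a, a secreted growth factor of bone marrow, ranged from 1.95 to 7.33 TPM, with a log2 fold change of -1.16 ± 0.40 in IC against Normal (adjusted p = 0.0677), where DESeq2's Wald test called it lower. Clec14a, an endothelial member that binds Mmrn2, ranged from 4.38 to 13.2 TPM and Clec1a from 0.355 to 1.95, and neither was called. Clec1b, the platelet receptor of podoplanin (Pdpn), had 21 counts, Clec12b 16 and Clec18a 64, and none of these was tested.

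The question of severity is addressed by IS against IC. Most members had higher values in IS, but none was called in edgeR's quasi-likelihood test, where 0% of all genes were called. At an unadjusted p under 0.05, 9 of the 20 members and 3498 of all genes passed. The median log2 fold change was 0.82 over the 20 members and -0.00 over all genes, with 16 members above 0. The 3 members that differed most were Clec4e (2.26 ± 0.54, adjusted p = 0.146), Clec10a (2.25 ± 0.49, adjusted p = 0.143) and Clec2d2l1 (1.34 ± 0.55, adjusted p = 0.204). Of the others, Clec12a (1.13 ± 0.33, adjusted p = 0.151), Clec7a (1.10 ± 0.39), Clec4a2 (1.04 ± 0.46), Clec4a1 (0.98 ± 0.26, adjusted p = 0.147), Clec5a (0.98 ± 0.50) and Clec4a3 (0.95 ± 0.29, adjusted p = 0.156) came next. Over the alternative fits, the lowest log2 fold change was 0.50 for Clec7a, 0.43 for Clec4a2 and 0.55 for Clec5a. On TPM, 5 of the 20 members (Clec10a, Clec12a, Clec4a1, Clec4a3 and Clec4e) had all IS rats above all IC rats, as did 15.4% of all genes, and 0 had all below, as did 18% of all genes.

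The absence of calls here depended on the tool and on 1 library. DESeq2's Wald test called Clec10a (2.27, adjusted p = 0.00139), Clec4e (2.29, adjusted p = 0.00586) and Clec12a (1.15, adjusted p = 0.0361) higher in IS than in IC, together with 256 of all 15742 genes higher and 347 lower. Without IS-HA replicate 2, the smallest library, which is no part of this comparison but enters the shared estimate of the spread, edgeR called the same 3 genes (adjusted p = 0.0251 for Clec10a, 0.0214 for Clec4e and 0.0241 for Clec12a), with 348 of all 15897 genes then tested called higher and 616 lower. Without IS replicate 4, the log2 fold change of Clec9a was -0.48 where it was 0.73 with all rats, that of Clec2d2l1 was 0.60 and that of Clec10a 1.55. Clec2d2l1 was then no longer among the 3 members that differed most.

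IS-HA against IS asks what followed aspiration. No group with a catheter alone was analysed here. The removal of blood therefore cannot be told apart from the catheter and the second anesthesia, here or in IS-HA against IC. None of the 20 members was called, where 0.00635% of all genes (1 gene) were called. At an unadjusted p under 0.05, 5 members and 1408 of all genes passed. DESeq2's Wald test called 0 members, with 44 of all 15742 genes called higher and 19 lower. The median log2 fold change was -0.58 over the members and 0.05 over all genes, with 14 members below 0. Clec4e (-2.09 ± 0.55, adjusted p = 0.499), Clec10a (-1.72 ± 0.49, adjusted p = 0.499) and Clec2d2l1 (-1.03 ± 0.56, adjusted p = 0.578) differed most. Without IS replicate 4, Clec10a was at -1.02 and Clec2d2l1 at -0.30. On TPM, 6 members (Clec10a, Clec4a1, Clec4a2, Clec4a3, Clec4e and Clec5a) had all IS-HA rats below all IS rats, as did 6.37% of all genes, and 1 (Clec2l) had all above, as did 3.6% of all genes. Without IS-HA replicate 2, Clec4e was called lower in IS-HA (-2.86, adjusted p = 0.0342), with 86 of all genes called lower and 395 higher. This comparison shares its IS rats with IS against IC, so the values of a gene in both are not independent.

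IS-HA against IC, the severe dose after aspiration against the common dose, had 0 members called (0% of all genes) and 0 members at an unadjusted p under 0.05 (782 of all genes). DESeq2 called 0 members, with 9 of all genes called higher and 9 lower. The median log2 fold change of the members was 0.20, beside 0.03 over all genes, and single values ran from -0.36 for Clec14a to 1.07 for Clec4a. Clec4e differed by 0.18 ± 0.57 and Clec10a by 0.52 ± 0.48, so a difference of the size of these errors could not be told from none.

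**Figure D4:**
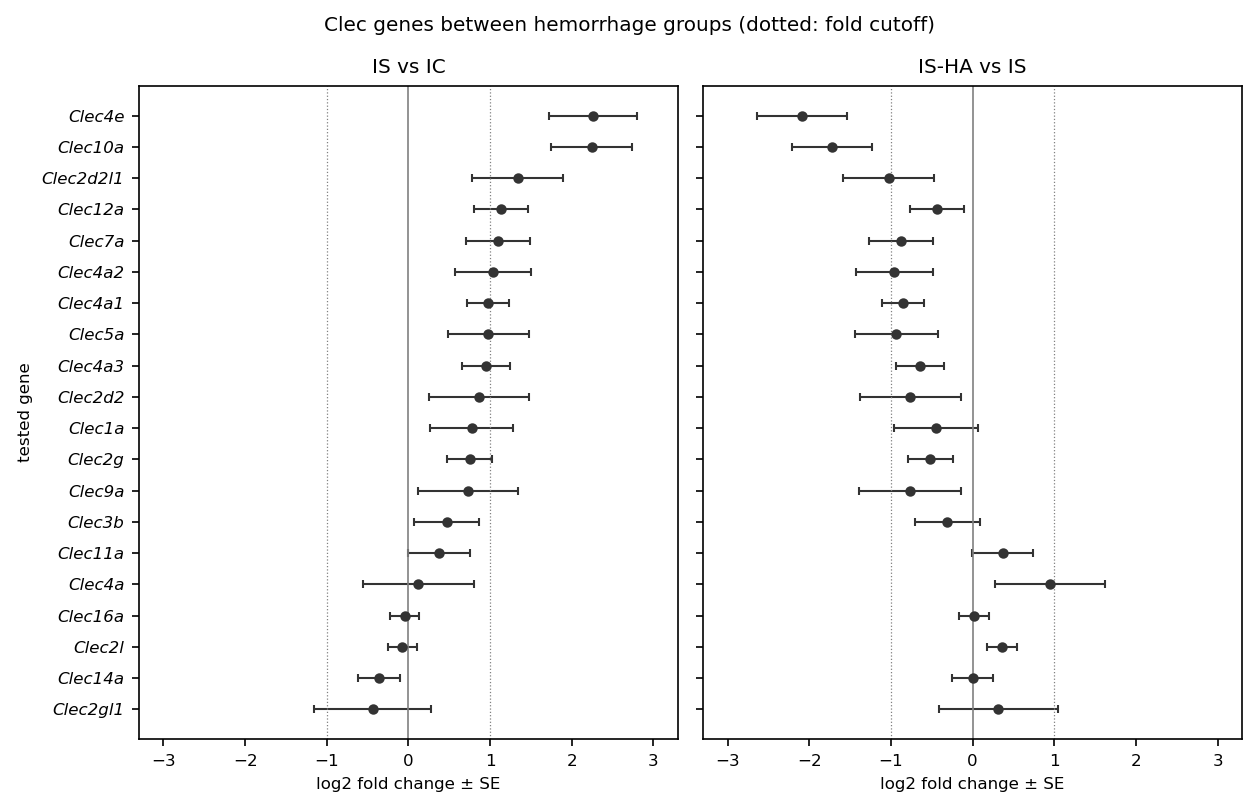
Log2 fold change ± SE of the 20 tested Clec genes in IS against IC (left) and IS-HA against IS (right), ordered by the left panel; dotted lines mark the fold cutoff of 1. Clec4e stands at 2.26 on the left and -2.09 on the right, and no gene passed the adjusted p in either comparison.

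Markers of the cells known to carry these receptors also differed between groups. The summed TPM of 12 microglia and macrophage markers, none at 0 in any group, was 333 to 458 in Normal, 2260 to 2858 in IC, 3793 to 4068 in IS and 2976 to 4259 in IS-HA. In IS against IC their median log2 fold change was 0.16 and 0 were called (0% of all genes), so the higher sum in IS does not stand for each marker. Against Normal, 11, 10 and 11 of these 12 were called higher in IC, IS and IS-HA, with medians of 2.86, 2.65 and 2.65. The 10 markers of infiltrating monocytes and border macrophages, all called higher in the 3 comparisons, summed to 28.6 to 29.5 in Normal, 129 to 269 in IC, 245 to 432 in IS and 194 to 237 in IS-HA. The 11 neutrophil markers summed to 5.33 and 5.35 in Normal, 92.4 to 281 in IC, 521 to 729 in IS and 174, 878 and 227 in IS-HA replicates 1, 2 and 3, and the macrophage sum was also highest in replicate 2. Members went both ways in that rat, which among the IS-HA rats had the highest TPM of Clec4e, Clec12a, Clec4a, Clec4a2, Clec2g, Clec3b and Clec2d2, and the lowest of Clec5a, Clec4a1, Clec9a and Clec4d, among others. The 11 NK and T cell markers found summed to 1.18 and 2.21 in Normal, 44.6 to 135 in IC, 178 to 465 in IS and 82.1 to 213 in IS-HA. The 9 platelet and megakaryocyte markers summed to 7.22 and 10.5 in Normal, 115 to 315 in IC, 167 to 782 in IS and 86.8 to 294 in IS-HA, with Gp1bb at 0 in every rat. Both sums were highest in IS replicate 4. Of the markers tested, 7, 7 and 7 of 7 neutrophil, 1, 5 and 3 of 7 NK and T cell and 1, 1 and 1 of 3 platelet markers were called higher in IC, IS and IS-HA. Beside all marker counts against Normal in this paragraph, 10.9%, 18.8% and 15.1% of all genes were called higher. Markers near 0 in Normal could pass the filter only through the hemorrhage groups and then had to differ. The counts are therefore not support for a property of a cell type. The part of cell numbers in the levels of members and markers was not tested.

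Set against the macrophage markers of the same rat, members differed in whether they stayed above Normal. Per 1000 TPM of the 12 summed markers, Clec4e was at 0.394 and 0 in Normal, 0.942 to 2.11 in IC, 4.08 to 5.22 in IS and 0.856 to 1.81 in IS-HA, so the IS rats stayed above all others. Clec10a was at 5.91 and 9.10 in Normal, 6.47 to 12.0 in IC, 15.2 to 47.9 in IS and 7.45 to 13.5 in IS-HA, again with IS above all other rats, while Normal, IC and IS-HA overlapped. Clec7a was at 0.225 and 0.316 in Normal, 14.4 to 24.6 in IC, 14.0 to 40.3 in IS and 13.7 to 20.7 in IS-HA, which separates Normal from the other groups and leaves those overlapping. Clec12a was at 2.52 and 2.66 in Normal, 15.5 to 24.7 in IC, 25.0 to 30.1 in IS and 20.9 to 25.9 in IS-HA. Clec4a1, at 6.33 and 6.40 in Normal, was at 13.8 to 16.0 in IC, 13.7 to 24.0 in IS and 9.22 to 14.1 in IS-HA. Clec2g and Clec3b, both called higher than Normal, were lower than Normal on this scale. Clec2g was at 16.0 and 17.6 in Normal and 6.46 to 10.2 in the rats with a hemorrhage, and Clec3b at 18.6 and 13 in Normal and 2.89 to 8.24 in those rats. Clec4a, called in IS-HA alone, was at 1.77 and 2.49 in Normal, 0.80 to 1.51 in IC and 0.22 to 1.04 in IS. Its IC and IS rats thus lay below both Normal rats, while IS-HA, at 0.69 to 2.26, overlapped Normal. These ratios are a description, since no test was run on them, and they hold for this denominator alone. No ratio was taken to the neutrophil markers, which summed to 92.4 to 281 in IC, 521 to 729 in IS and 174 to 878 in IS-HA. Whether the IS rats would stay above the others on such a scale was not tested.

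**Figure D5:**
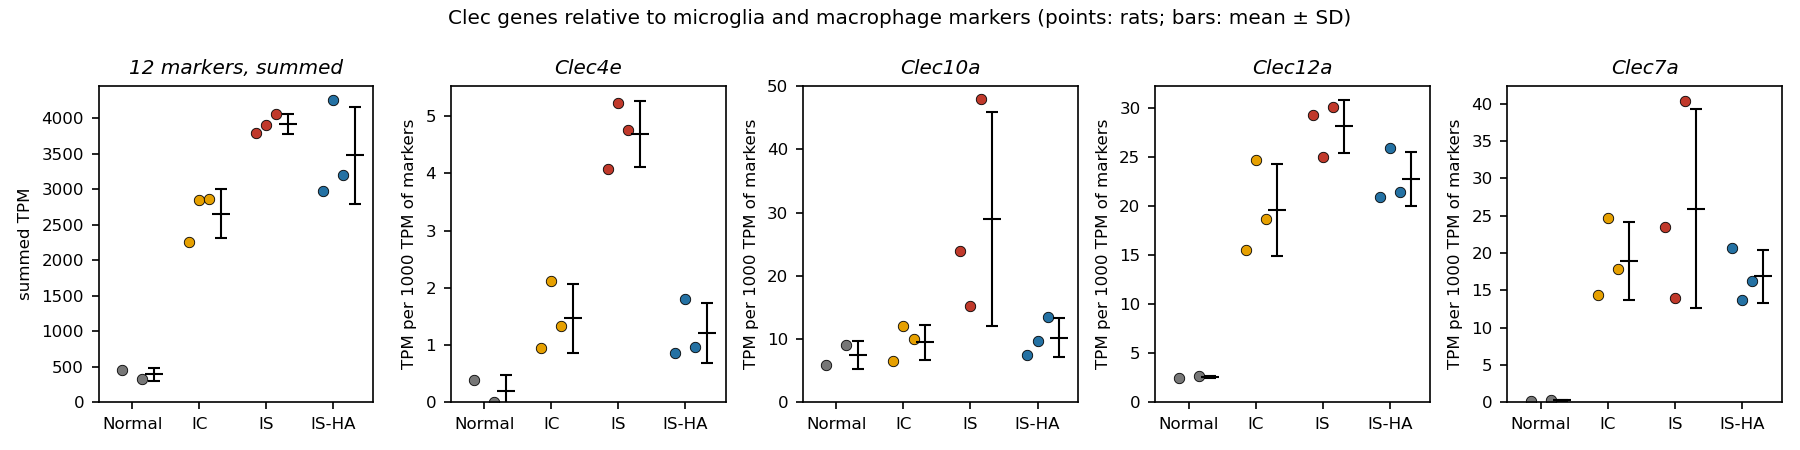
Left, summed TPM of 12 microglia and macrophage markers; other panels, TPM of Clec4e, Clec10a, Clec12a and Clec7a per 1000 TPM of those markers, by group, with 1 point per rat and bars for mean ± SD. The IS points of Clec4e (4.08 to 5.22) and Clec10a (15.2 to 47.9) lie above all others, and those of Clec7a overlap IC and IS-HA.

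The genes that carry the receptors' signal were read from lists of known partners. Against Normal, 10.9%, 18.8% and 15.1% of all genes were called higher in IC, IS and IS-HA, and 2.66%, 17% and 7.71% lower, which is the background of each list. As with the members, listed genes near 0 in Normal passed the filter through the hemorrhage groups alone and had to differ. Among them were Cxcl2, Il6 and Klrb1b, with 0 counts in both Normal rats. The counts and medians against Normal are therefore not support for a property of a list. All 3 adaptors were called higher in IC, IS and IS-HA against Normal. In IS, Hcst had a log2 fold change of 5.57 ± 0.95 (adjusted p = 0.00107), Tyrobp, the partner of Clec5a, 5.41 ± 0.66 (adjusted p = 0.000163) and Fcer1g, the partner of Clec4e, 4.45 ± 0.46 (adjusted p = 6.97e-05). The TPM of Tyrobp was 33.0 and 20.4 in Normal, 395 to 624 in IC, 853 to 1626 in IS and 502 to 1218 in IS-HA. Of 12 tested kinases and scaffolds, 4 were called higher in IC, 4 in IS and 5 in IS-HA. In IS these were Vav1 (4.73 ± 0.40), Syk (4.40 ± 0.50), Lyn (3.35 ± 0.29) and Plcg2 (2.95 ± 0.36), whereas Traf6 was called lower (-1.03 ± 0.39, adjusted p = 0.0479). The others, among them Bcl10 (0.66 ± 0.18), Malt1 (-0.52 ± 0.52) and Src (0.22 ± 0.18), did not pass.

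Of the 3 phosphatases that inhibitory members recruit, Ptpn6 (4.04 ± 0.37) and Inpp5d (2.44 ± 0.22) were called higher in IS, and the same number, 2, in IC and IS-HA. Ptpn11 had a value of -0.73 ± 0.23 in IS (adjusted p = 0.0216), under the fold cutoff, -0.47 ± 0.23 in IC (adjusted p = 0.166) and -0.54 ± 0.23 in IS-HA (adjusted p = 0.0908). Of 16 tested genes of transcription and output, 9 were called higher and 2 lower in IS (8 and 1 in IC, 8 and 2 in IS-HA). In IS the cytokine gene Ccl2 rose by 9.10 ± 0.84. Cxcl2 and Il6 had 0 counts in both Normal rats and were at least 209-fold and 15.6-fold higher in IS, against a floor of 3 counts over both. Egr3, an immediate early factor that neurons also express, was called lower (-3.26 ± 0.60). Of 5 tested ligands, 3 were called higher in IC, IS and IS-HA. In IS these were the Clec2 receptor Klrb1b, which was at 0 TPM in both Normal rats and at 1.34 to 1.58 in IS, Vim (5.39 ± 0.44) and Pdpn, the ligand of Clec1b (4.07 ± 0.37).

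Of 26 other tested genes with the C-type lectin fold, 13 were called higher and 1 lower in IC, 18 and 2 in IS, and 15 and 1 in IS-HA. Among those called higher in IS were the adhesion molecule Selp (5.93 ± 0.76) and the scavenger receptor Olr1 (5.50 ± 0.56). The median log2 fold change in IS against Normal was 5.41 for the adaptors, 0.53 for the kinases and scaffolds, 2.44 for the phosphatases, 1.79 for transcription and output, 4.07 for the ligands (3.97 with Klrb1b at its bound) and 2.08 for the other lectin-fold genes, beside 0.02 over all genes. None of the genes in these lists was called in IS against IC, IS-HA against IS or IS-HA against IC, where the medians of the adaptors were 1.21, -0.52 and 0.71.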

How the data were processed

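RNA of the striatum was measured in 11 rats, 1 library per rat. The authors prepared stranded poly(A) libraries and deposited read counts per gene as whole numbers without normalization, together with TPM, in which counts were corrected for gene length and scaled to the same sum in each rat. The submitters' processing notes name fastp 0.20.0, HISAT2 2.1.0, SAMtools 1.9, featureCounts, DESeq2 and the build mRatBN7.2, with no roles, and the counting options are not given in the sources used here. Columns were matched to rats by the library name in the labels, with 0 left unmatched.

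In R 4.3.3, the filterByExpr function of edgeR 4.0.16 removed low genes, and the 15742 that remained were scaled by TMM and fitted in 1 model of all 4 groups. The quasi-likelihood F test of edgeR gave the p-values, which were adjusted across those genes by the method of Benjamini and Hochberg. The study's methods use DESeq2, which was run as an alternative (1.42.0), as was limma 3.58.1 on log2(TPM + 1) and log2(TPM + 0.1). The cutoffs were an adjusted p of 0.05 and a log2 fold change of 1. The standard error of a log2 fold change was taken as its size over the root of its F value. Count ratios to Normal are of summed counts after TMM scaling, with exact 95% intervals. The libraries carry no molecular identifiers and their reads may be copies of 1 molecule, so intervals and the floor of 3 counts (0.448 CPM in the smallest library) cover counting error only. The script was tested on simulated data. Python 3.11.15 and matplotlib 3.10.9 made the plots.

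Values in every rat are given for each member called in any of the 6 comparisons, the 3 that differed most in IS against IC and in IS-HA against IS, and the 3 highest in Normal, which makes 17 members. From each list, the genes with the largest changes in IS against Normal are named, except 1 that is not reported here. The members, the lists and this rule were chosen with earlier results of these data known. The labels give 2 Normal rats where the study's text states 3 per group. Other alternatives were DESeq2's size factors, library size alone, other count filters, a fit of the 2 groups alone, leaving out 1 rat at a time, the replicate block and other cutoffs. Protein sequences and predictions of pathways were not analysed here.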

Additional observations from a re-analysis of the deposited data

How the results depend on the processing

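Over 20 refits, the log2 fold changes of the named members kept their direction and their call in 1366 of the values computed, lost the call in 41, gained it in 7 and turned in direction in 20. In IS against IC, Clec4a was -0.0801 with the replicate block, -0.0607 on log2(TPM + 1) and -0.17 on log2(TPM + 0.1). In IS-HA against IS, Clec16a was -0.0139 with DESeq2's size factors and -0.0117 in DESeq2's Wald test, Clec2d2 was 0.22 with the replicate block and Clec2gl1 was -0.49 on log2(TPM + 0.1). With 1 rat left out, IS against IC ran from -0.13 to 0.10 for Clec16a, -0.22 to 0.0198 for Clec2l, -0.32 to 0.58 for Clec4a and -0.48 to 1.16 for Clec9a. IS-HA against IS ran from -0.17 to 0.12 for Clec16a, -1.12 to 0.0836 for Clec2d2, -0.17 to 0.77 for Clec2gl1, -0.65 to 0.0547 for Clec3b and -1.22 to 0.45 for Clec9a. The cause was not tested.

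Requiring at least 10 counts in every rat removes members near 0 in Normal. It left Clec10a, Clec11a, Clec14a, Clec16a, Clec2g, Clec2l, Clec3b, Clec4a1 and Clec4a3 to be tested. No share over all genes is given for this filter. The counts of members called under it therefore cannot be told from the background, and no conclusion is drawn from them. Of the members left, 4, 5 and 5 were called higher in IC, IS and IS-HA against Normal. With 1 rat left out these counts ran from 8 to 14, 13 to 16 and 10 to 14. In IC against Normal, 1 member (Clec11a) was called lower by DESeq2's Wald test, in the fit of only the 2 groups and at an unadjusted p under 0.05, and 0 to 1 with 1 rat left out. In IS against Normal, 1 member (Clec16a) was lower with the adjusted p alone, and 0 to 1 (Clec11a, without IS replicate 2) with 1 rat left out. In IS against IC, 3 members were called by DESeq2's Wald test and 3 without IS-HA replicate 2, with the counts over all genes given above. At an unadjusted p under 0.05 with the fold cutoff, 6 members passed, as did 1340 of all 15742 genes. In IS-HA against IS, 2 members and 574 of all 15742 genes passed that cutoff, and 1 member (Clec4e) was called without IS-HA replicate 2. Detected members numbered 34 with a minimum of 1 count and 23 with 30 counts.

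Rats with the same replicate number are different animals, and their deviations from the group means correlated by 0.0336 on average in IS against IC (-0.340 to 0.356). The replicate block gave 8, 12 and 12 members higher than Normal in IC, IS and IS-HA, with 824, 1827 and 1657 of all genes higher where 1720, 2959 and 2383 were without it. Library size alone moved the median of all genes to 0.14, 0.15 and 0.18 in IC, IS and IS-HA against Normal, where Clec2gl1 was also called higher in IC and IS. The 3 counts of the floor limit what can be said of genes with 0 to 3 counts in Normal, and with 2 Normal rats and 3 of each other group the differences between hemorrhage groups rest on few animals. The labels do not say how the rats were spread over surgery or sequencing days.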
